A study of Bos taurus with 6 samples.

Results

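Described here are 8 imprinted genes, NNAT, PEG10, DIRAS3, MEST, NDN, NAP1L5, SNRPN and SLC38A4, in 3 tissues of the bovine fetus. The genes were taken by name from a table of 14179 gene symbols, and all 8 were in it. All 8 were also among the 11478 genes that passed the filter on low counts. SLC38A4 passed it through its liver counts alone. Poly(A) RNA was sequenced from 3 organs of Holstein fetuses, namely forebrain, liver and rumen, a forestomach of ruminants in which feed is fermented. Every library was labelled male, wild type and aged 90 days, and the fetuses measured 13 to 16 cm from crown to rump. Each tissue had 2 libraries, called Forebrain 1 and 2, Liver 1 and 2, and Rumen 1 and 2. The submitters collected 2 male fetuses, and the 6 libraries can therefore stem from no more than 2 animals. The labels do not say which animal gave which library. The spread behind each p-value is thus that between these samples, and it may be technical. Tissues were taken whole, so fewer cells of a type and less RNA per cell cannot be told apart.

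An imprinted gene is read mainly or only from the copy inherited from one parent. Marks set in the germ line, often DNA methylation, differ between the maternal and paternal copies. All 8 genes are known as paternally expressed in human, mouse or both, and many such genes are active in the placenta and in fetal tissues and fall after birth. NNAT (neuronatin) encodes a small membrane proteolipid of the developing brain. PEG10 encodes a protein derived from the Gag and Pol regions of a retrotransposon. DIRAS3 is a small GTPase of the RAS family that slows growth, and MEST an enzyme-like protein of the alpha/beta hydrolase fold known from mesoderm. NDN (necdin) is a MAGE family protein of postmitotic neurons, NAP1L5 a relative of the nucleosome assembly proteins, and SNRPN (SmN) a splicing protein of the brain. SLC38A4 is an amino acid transporter of the liver and placenta. Gene counts hold no allele information, so the parental origin of the transcripts was not measured.

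Total counts ran from 10271024 to 18528958 per library. CPM here is the usual count unit relative to library size, with sizes scaled by TMM factors, and 3 counts in a library equalled 0.193 to 0.244 CPM. This floor and the intervals below cover counting error only. The tissue labels were checked against marker genes. The summed level of 9 neuron markers was 12071 and 11510 CPM in forebrain, against 82.9 and 64.1 CPM in liver and 374 and 390 CPM in rumen. Hepatocyte markers, 7 in number, summed to 218992 and 187873 CPM in liver and to at most 17.3 CPM in any other library. The 7 markers of stratified epithelium summed to 14232 and 11591 CPM in rumen and to at most 182 CPM elsewhere. The liver libraries were less alike than the other pairs. Across 8815 genes averaging 100 or more counts, log2 differences within the pair had a standard deviation of 1.05 for liver, 0.412 for forebrain and 0.471 for rumen. In the same pair the 9 erythroid markers summed to 148024 CPM in Liver 1 and 56474 CPM in Liver 2.

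Across the 3 tissues the genes did not move as a block. Together they took 1.21% and 1.49% of all counts in forebrain, with 0.629% and 1.32% in liver but only 0.165% and 0.181% in rumen. NNAT and PEG10 supplied 79.8% and 79.0% of these counts in forebrain and 97.6% and 98.9% in liver, but 41.3% and 43.8% in rumen. In rumen against forebrain, 1 of the 8 genes was higher (MEST) and 6 were lower, and SLC38A4 did not pass the test. Of all genes tested, 20.3% were called higher in this comparison, 21.5% lower and 41.8% in either direction (edgeR's quasi-likelihood test, called at a Benjamini-Hochberg adjusted p of at most 0.05). In rumen against liver, 3 genes were higher (DIRAS3, MEST and NDN), 4 were lower (NNAT, PEG10, NAP1L5 and SLC38A4), and SNRPN did not pass. The background there was 21.2% higher, 21.8% lower and 43.0% in either direction. In liver against forebrain, SLC38A4, which passed the filter through its liver counts alone, was higher. In the same comparison 5 genes were lower, and NNAT and PEG10 did not pass. That background was 30.5% higher, 27.3% lower and 57.8% in either direction. The median log2 fold change of the 8 genes was -3.26 in rumen against forebrain, -0.23 in rumen against liver and -2.44 in liver against forebrain. Over all tested genes the medians were -0.01, -0.06 and 0.14. The 3 comparisons share libraries in pairs, so their calls are not independent of each other. The 2 libraries of one tissue did not overlap those of another for 8 of the 8 genes in both rumen comparisons and for 6 in liver against forebrain. The share of all tested genes without overlap was not counted, so these numbers are not read as a trait of the 8 genes. For SLC38A4 in rumen against forebrain the separation rested on 0 counts against 1 and 4.

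**Figure D1:**
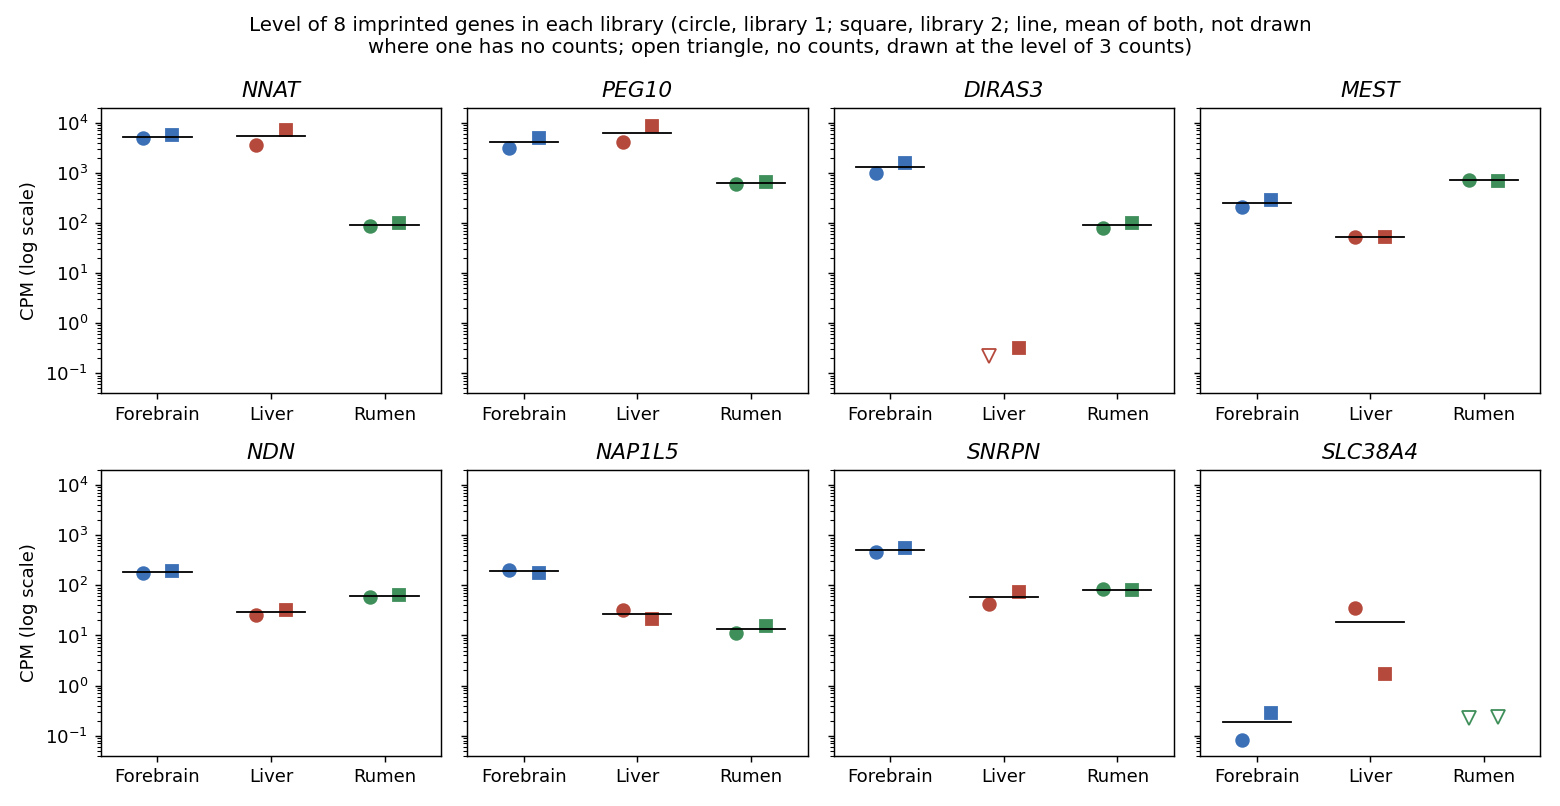
CPM on a log scale of each of the 8 genes in Forebrain, Liver and Rumen, with a circle for library 1, a square for library 2 a line at their mean where both have counts, and an open triangle at the level of 3 counts where a library has none. NNAT and PEG10 are lowest in rumen, DIRAS3 has no counts in Liver 1, MEST is highest in rumen, and the Liver libraries of SLC38A4 lie 35.0 against 1.67 CPM.

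NNAT and PEG10 formed the first pattern, with high levels in forebrain and liver and low levels in rumen. NNAT stood at 4857 and 5567 CPM in Forebrain 1 and 2, at 3538 and 7050 CPM in Liver 1 and 2, and at 84.9 and 99.5 CPM in Rumen 1 and 2. Both rumen libraries lay far below the other 4, whereas the liver libraries lay on either side of the forebrain pair. NNAT was 56.5-fold lower in rumen than in forebrain (log2 fold change -5.82 ± 0.46 (SE); adjusted p = 0.000212, edgeR) and 57.4-fold lower than in liver (log2 fold change -5.84 ± 0.46; adjusted p = 0.000191, edgeR). Between liver and forebrain its mean levels were 5294 ± 2483 and 5212 ± 502 CPM (SD, n = 2), and the difference did not pass (log2 fold change 0.02 ± 0.38 (SE); adjusted p = 0.967, edgeR). The sign of that small difference turned with the scaling of the libraries, and without Liver 2 it was -0.56. Neuron markers, summed above, were far lower in liver than in forebrain. Of the 9, TUBB3, GAD1, SLC17A6 and DCX had no counts in either liver library, and the other 5 were detected there. MAP2 was highest of these at 49.4 and 48.2 CPM, and STMN2 stood at 27.2 and 2.89 CPM.

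PEG10 stood at 3185 and 4849 CPM in forebrain, 4019 and 8535 CPM in liver, and 589 and 640 CPM in rumen. Again the rumen pair was lowest, and Liver 2 was highest of all 6 libraries. PEG10 was 6.54-fold lower in rumen than in forebrain (log2 fold change -2.71 ± 0.45 (SE); adjusted p = 0.00367, edgeR) and 10.2-fold lower than in liver (log2 fold change -3.35 ± 0.46; adjusted p = 0.00163, edgeR). The first of these calls was lost without Rumen 1 (adjusted p = 0.0561, edgeR) or Rumen 2 (adjusted p = 0.0522, edgeR), at log2 fold changes of -2.65 and -2.74. Without Liver 2 the log2 fold change against liver fell in size to -2.71 and still passed. Liver and forebrain means were 6277 ± 3194 and 4017 ± 1177 CPM (SD, n = 2) and did not pass the test (log2 fold change 0.64 ± 0.42 (SE); adjusted p = 0.227, edgeR). Without Liver 1 it passed, at a log2 fold change of 1.08 (adjusted p = 0.00286, edgeR), and without Liver 2 the log2 fold change was -0.0037.

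DIRAS3 was high in forebrain, lower in rumen and nearly undetected in liver. It stood at 993 and 1568 CPM in forebrain, at 80.7 and 98.0 CPM in rumen, and at 0 and 0.321 CPM in liver. The liver values came from 0 and 5 counts, so Liver 1 allows a level of up to 0.223 CPM. The 3 tissues did not overlap. DIRAS3 was 14.3-fold lower in rumen than in forebrain (log2 fold change -3.84 ± 0.39 (SE); adjusted p = 0.000230, edgeR). Rumen passed above liver (adjusted p = 7.12e-05, edgeR) and liver below forebrain (adjusted p = 1.36e-05, edgeR). Because so few liver counts make a fitted fold change unstable, the ratio of pooled counts is given for both. Pooled over libraries, rumen was 518 times liver (95% exact Poisson interval 222 to 1596) and forebrain 7530 times liver (3226 to 23191). With Liver 2 alone, which holds the 5 counts, the ratios were 278 (119 to 857) and 4042 (1732 to 12450). Among the 8 genes, DIRAS3 in liver and SLC38A4 in rumen and forebrain were thus at or near the limit of detection while NNAT and PEG10 were abundant in liver.

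NDN, SNRPN and NAP1L5 shared another pattern, high in forebrain and several times lower in both other tissues. NDN stood at 177 and 191 CPM in forebrain, 26.0 and 32.6 CPM in liver, and 58.8 and 63.4 CPM in rumen. Forebrain was highest and liver lowest, with no overlap. NDN was 3.01-fold lower in rumen than in forebrain (log2 fold change -1.59 ± 0.22 (SE); adjusted p = 0.00169, edgeR) and 6.27-fold lower in liver than in forebrain (log2 fold change -2.65 ± 0.23; adjusted p = 0.000139, edgeR). It was 2.08-fold higher in rumen than in liver (adjusted p = 0.00913, edgeR), a call lost without Rumen 1 (adjusted p = 0.0596, edgeR) or Rumen 2 (adjusted p = 0.0732, edgeR).

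SNRPN stood at 458 and 545 CPM in forebrain, 42.7 and 72.1 CPM in liver, and 83.9 and 80.2 CPM in rumen. It was 6.11-fold lower in rumen (log2 fold change -2.61 ± 0.30 (SE); adjusted p = 0.000764, edgeR) and 8.73-fold lower in liver (log2 fold change -3.13 ± 0.30; adjusted p = 0.000221, edgeR) than in forebrain. Rumen lay just above both liver libraries but did not pass against liver, at a log2 fold change of 0.51 ± 0.28 (SE; adjusted p = 0.188, edgeR). Without Liver 2 that comparison passed at 0.94 (adjusted p = 0.000972, edgeR). With no scaling factors it also passed, at 0.84 (adjusted p = 0.0490, edgeR).

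NAP1L5 stood at 202 and 177 CPM in forebrain, 31.8 and 21.1 CPM in liver, and 11.2 and 15.6 CPM in rumen. Unlike for NDN and SNRPN, rumen was the lowest tissue. NAP1L5 was 14.1-fold lower in rumen (log2 fold change -3.82 ± 0.32 (SE); adjusted p = 0.000241, edgeR) and 7.19-fold lower in liver (log2 fold change -2.85 ± 0.30; adjusted p = 0.000307, edgeR) than in forebrain. It was 1.96-fold lower in rumen than in liver (adjusted p = 0.0386, edgeR), but not under 9 of 16 other settings, among them every fit that left out a Forebrain or a Rumen library. For these genes and DIRAS3, the neuron markers given above were highest in forebrain too. So was the sum of 8 radial glia and astrocyte markers, at 1854 and 2422 CPM against at most 1345 CPM elsewhere. Of these 8, 1 was higher in rumen than in forebrain. This was VIM, which made up most of the rumen sum at 1278 and 1284 CPM. The part of these cell types in the result was not tested.

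MEST ran the other way. It stood at 206 and 285 CPM in forebrain, 52.4 and 52.3 CPM in liver, and 724 and 692 CPM in rumen. The rumen pair was highest and the liver pair lowest, with no overlap. MEST was 2.88-fold higher in rumen than in forebrain (log2 fold change 1.53 ± 0.23 (SE); adjusted p = 0.00236, edgeR) and 13.5-fold higher than in liver (log2 fold change 3.76 ± 0.25; adjusted p = 0.000102, edgeR). Forebrain was 4.69-fold above liver (adjusted p = 0.000317, edgeR). All 3 MEST calls held in all 16 other settings run. In rumen, markers of fibroblasts summed to 15722 and 16461 CPM and markers of smooth muscle to 8307 and 8762 CPM. The other tissues reached at most 940 and 241 CPM. Sums of the markers of stratified epithelium, mesothelium, skeletal muscle, and enteric and peripheral neurons were also highest in rumen. The skeletal muscle sum rested mostly on TNNT3, at 37.5 and 38.2 CPM in rumen, and MYH3, MYH8, ACTA1 and CKM each peaked outside rumen. The mesothelium sum rested mostly on KRT19, at 305 and 241 CPM in rumen. MSLN and UPK3B of that list were highest in Liver 2, at 7.19 and 9.96 CPM. The part of these cell types in the MEST level was not tested.

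SLC38A4 was detected mainly in liver, and unevenly there. It had 470 counts in Liver 1 and 26 in Liver 2, or 35.0 and 1.67 CPM. It had 1 and 4 counts in forebrain and no counts in rumen, which allows up to 0.230 and 0.234 CPM in the rumen libraries. Both liver libraries lay above the other 4, but Liver 1 was 19.3-fold above Liver 2. Pooled over its libraries, liver was at least 148-fold above rumen, with the floor of 3 counts taken over both rumen libraries. That limit rested on Liver 1, and with Liver 2 alone it was at least 14.4-fold. Pooled liver counts were 89.5 times those of forebrain (95% exact Poisson interval 38.1 to 277), but with Liver 2 alone the ratio was 8.74 (3.30 to 29.1). Both differences passed (adjusted p = 0.0187 against rumen and 0.0176 against forebrain, edgeR), for a gene that entered the test through its liver counts alone. These calls are thus no separate support for its liver level. Neither passed without either Forebrain library or with limma-voom, and the one against rumen also failed without either Rumen library and with only the 2 tissues compared in the fit. The range of adjusted p over the other settings ran up to 0.0875 against rumen and 0.164 against forebrain. Forebrain and rumen could not be told apart at this depth. The summed erythroid markers were 2.62 times as high in Liver 1 as in Liver 2, the macrophage markers 2.12 times and the hepatocyte markers 1.17 times. Not every marker followed its sum. Higher in Liver 2 were KLF1 of the erythroid list, AIF1 of the macrophage list, and TTR, SERPINA1, FGB and HNF4A of the 7 hepatocyte markers. The rest were higher in Liver 1. The part of these cell types in the SLC38A4 level was not tested.

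**Figure D2:**
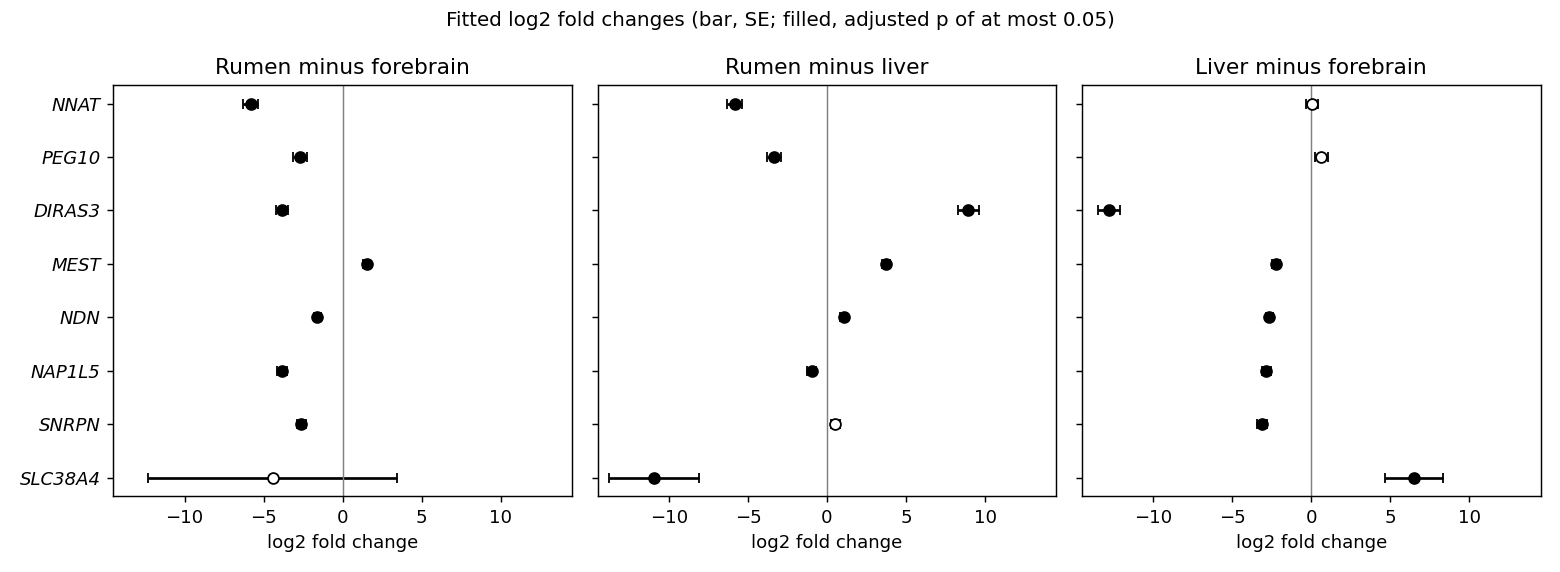
Fitted log2 fold change of each gene (x axis) in the 3 comparisons, with the standard error as a bar. Filled points passed an adjusted p of 0.05. NNAT and PEG10 lie left of 0 in both rumen panels and open near 0 in liver minus forebrain, MEST lies right of 0 in both rumen panels, and the widest bars belong to SLC38A4.

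The 2 liver libraries differed in both directions for these genes. PEG10 was 2.12-fold and NNAT 1.99-fold higher in Liver 2 than in Liver 1, and SNRPN was 1.69-fold higher. NDN was 1.25-fold higher in Liver 2, MEST differed by 1.00-fold, and NAP1L5 was 1.51-fold lower. Such gaps were common in this pair. Of the 8815 genes averaging 100 or more counts, 75.6% had a smaller absolute gap than PEG10 and 71.7% a smaller one than NNAT. The gap of SLC38A4 was larger than that of 99.9% of these genes. In forebrain, DIRAS3 was 1.58-fold and PEG10 1.52-fold higher in Forebrain 2, gaps larger than those of 92.5% and 90.8% of the same genes. In rumen the gaps ran from 1.05-fold for SNRPN and MEST to 1.38-fold for NAP1L5 among the 7 genes with rumen counts.

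**Figure D3:**
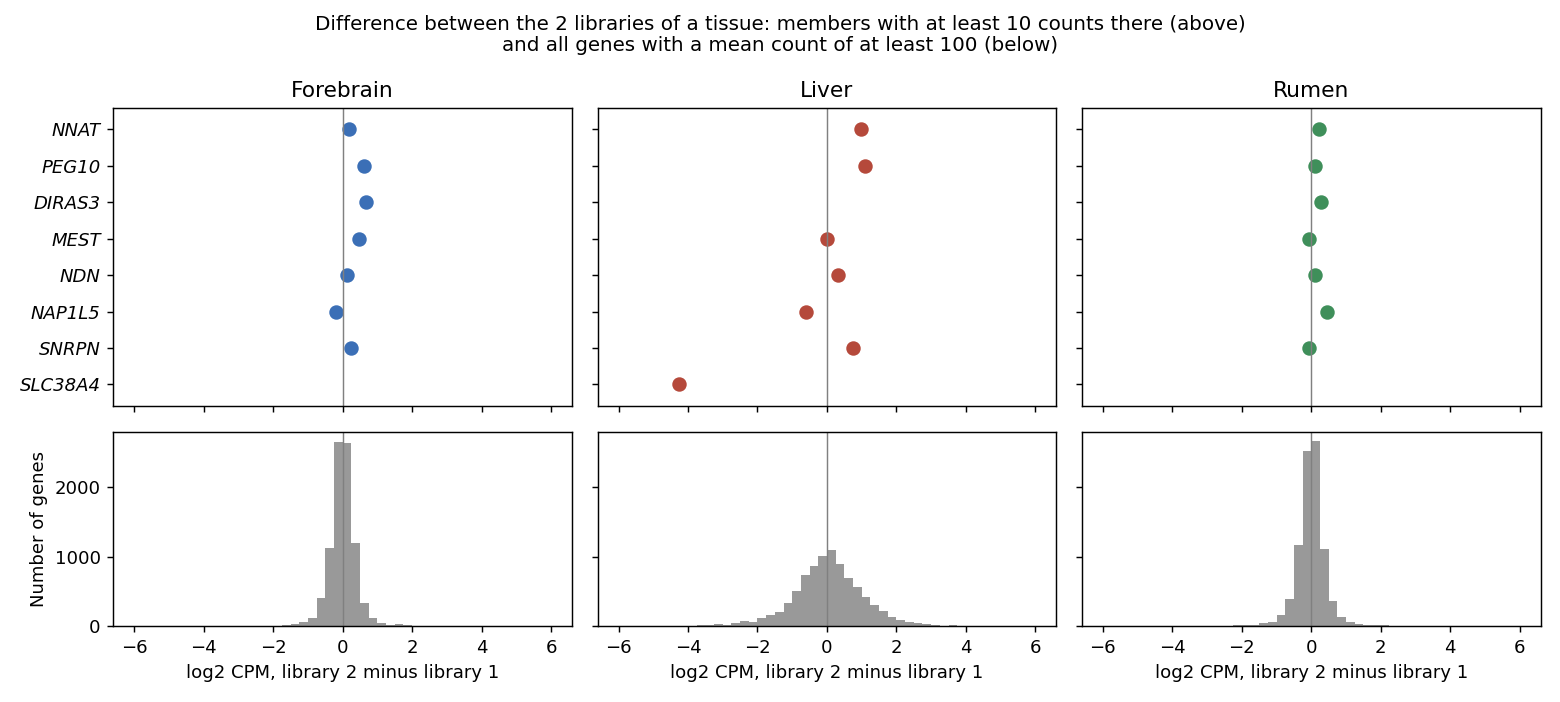
Upper panels show log2 CPM of library 2 minus library 1 for each gene with at least 10 counts in the tissue, and lower panels the same difference for 8815 genes. The liver panel is the widest, with PEG10 at 1.09, NNAT at 0.99 and SLC38A4 at -4.27.

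Imprinted genes often lie in clusters, and several of these genes overlap another gene. By the RefSeq gene table, NNAT overlaps BLCAP, MEST overlaps COPG2, NAP1L5 overlaps HERC3 and SNRPN overlaps SNURF. The strand setting of the counting is not given in the sources used here and the library kit named does not mark strand, so reads from any stretch that such partners share cannot be told apart. How much of their exons overlap was not examined. SNURF, the upstream reading frame of the SNRPN transcript, had no counts in any library. BLCAP, whose intron holds NNAT in mammals, stood at 548 and 588 CPM in forebrain, 109 and 337 CPM in liver, and 55.2 and 58.5 CPM in rumen. It was thus 9.99-fold lower in rumen than in forebrain (adjusted p = 0.00276, edgeR), 3.92-fold lower than in liver (adjusted p = 0.0175, edgeR) and 2.55-fold lower in liver than in forebrain (adjusted p = 0.0451, edgeR). BLCAP was 3.10-fold higher in Liver 2 than in Liver 1, the same direction as NNAT. For each 100 NNAT counts there were 11.3 and 10.6 BLCAP counts in forebrain. In liver there were 3.07 and 4.78, and in rumen 65.1 and 58.8, so the ratio was not constant.

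HERC3 and COPG2 overlap NAP1L5 and MEST. HERC3, a ubiquitin ligase gene, stood at 10.2 ± 1.35 CPM in forebrain, 7.97 ± 1.80 CPM in liver and 20.9 ± 5.01 CPM in rumen (SD, n = 2), where NAP1L5 was highest in forebrain. HERC3 passed as 2.61-fold higher in rumen than in liver (adjusted p = 0.0227, edgeR) but not against forebrain (2.06-fold; adjusted p = 0.0579, edgeR). COPG2, a coat protein of vesicles, stood at 62.3 ± 8.55, 16.1 ± 4.11 and 53.5 ± 3.30 CPM (SD, n = 2) in forebrain, liver and rumen. COPG2 and MEST both passed as lower in liver, COPG2 at 3.89-fold against forebrain (adjusted p = 0.00128, edgeR). In rumen against forebrain, where MEST was higher, COPG2 had a log2 fold change of -0.22 (adjusted p = 0.548, edgeR). SGCE, the sarcoglycan gene next to PEG10, stood at 66.1 ± 0.970, 98.6 ± 31.7 and 114 ± 23.0 CPM (SD, n = 2) and passed in none of the 3 comparisons by edgeR (adjusted p = 0.0683, 0.592 and 0.126).

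NDN and SNRPN are neighbours in the count table when its genes are put in RefSeq order, with UBE3A further along. UBE3A, the ubiquitin ligase of the same cluster, stood at 212 and 197 CPM in forebrain, 118 and 113 CPM in liver, and 105 and 114 CPM in rumen. It was 1.87-fold lower in rumen (adjusted p = 0.00991, edgeR) and 1.77-fold lower in liver (adjusted p = 0.00966, edgeR) than in forebrain. All 3 genes of this cluster were therefore highest in forebrain, by different amounts. Taking the 3 nearest genes of the table on each side of every member gave 30 tested neighbours. In rumen against forebrain 5 of them were higher and 8 lower (43.3% called), in rumen against liver 9 and 5 (46.7%), and in liver against forebrain 7 and 10 (56.7%), each near the share of all tested genes. Near NNAT, VSTM2L, a membrane protein gene, stood at 225 ± 20.5 CPM in forebrain, 1.42 ± 0.733 CPM in liver and 21.8 ± 4.56 CPM in rumen (SD, n = 2), so that it was scarce in liver where NNAT was abundant.

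**Figure D4:**
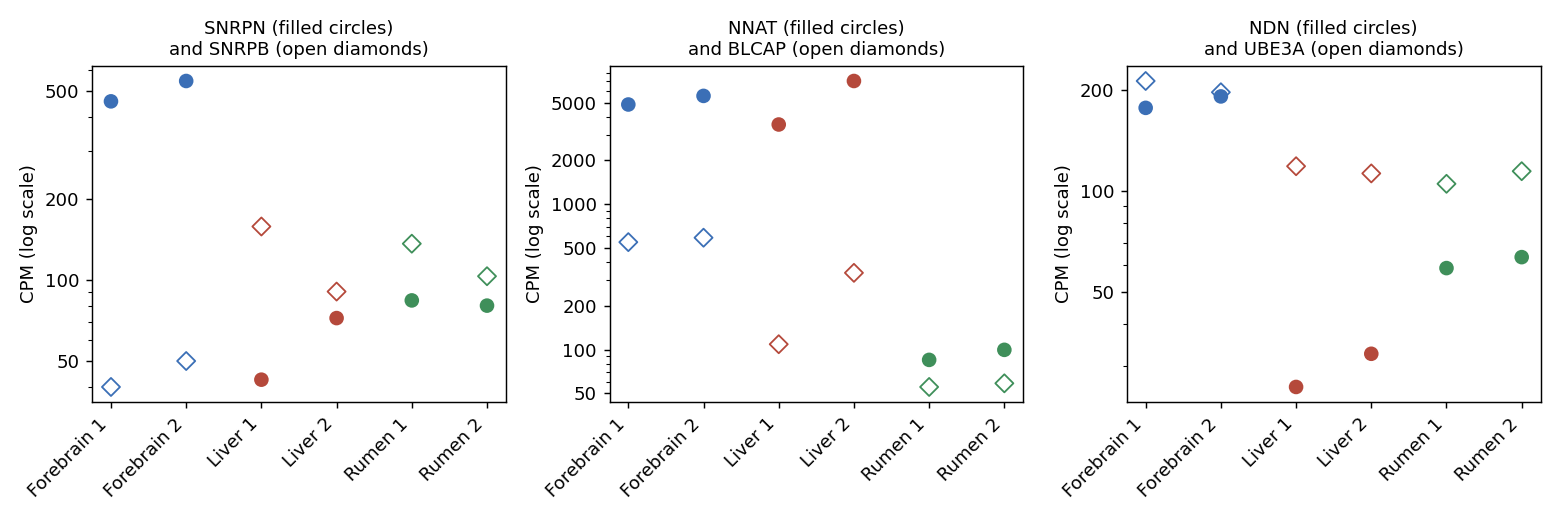
CPM on a log scale in the 6 libraries for SNRPN with SNRPB, NNAT with BLCAP, and NDN with UBE3A (filled circles for the first gene, open diamonds for the second). SNRPN is high and SNRPB low in forebrain, BLCAP and NNAT are both lowest in rumen, and NDN spans a wider range than UBE3A.

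Relatives of each gene were counted from fixed family lists, whose medians stand beside the -0.01, -0.06 and 0.14 of all tested genes in the same 3 comparisons. The shares of all tested genes called, again for reference, were 20.3% higher and 21.5% lower in rumen against forebrain, 21.2% and 21.8% in rumen against liver, and 30.5% and 27.3% in liver against forebrain. In the Sm core of the spliceosome, SNRPN can take the place of SNRPB, which encodes the SmB proteins. SNRPB stood at 40.1 and 50.0 CPM in forebrain, 158 and 90.4 CPM in liver, and 136 and 103 CPM in rumen. It was 2.65-fold higher in rumen (adjusted p = 0.0140, edgeR) and 2.75-fold higher in liver (adjusted p = 0.00844, edgeR) than in forebrain, opposite to SNRPN. Of the counts of both genes, SNRPN took 92.0% and 91.6% in forebrain. Its share was 21.3% and 44.4% in liver, against 38.1% and 43.8% in rumen. These shares are not corrected for transcript length, and reads of such close paralogs could be split in error. Among the 7 Sm genes other than SNRPN, 2 were higher in rumen than in forebrain (SNRPB and SNRPG) and the other 5 did not pass. Against liver 6 were higher in rumen, among them SNRPD2 and SNRPG, and SNRPB did not pass. In liver against forebrain 1 was higher and 2 were lower. The list's median log2 fold changes were 0.50 in rumen against forebrain, 0.83 in rumen against liver and -0.45 in liver against forebrain.

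PEG10 is one of several mammalian genes that descend from retrotransposon Gag sequences. A list of 18 other such genes had 8 in the count table, all of them tested. Of these 8, 6 were lower in rumen than in forebrain, where 21.5% of all tested genes were lower. The other 2, RTL1 and ARC, did not pass. In liver against forebrain 6 were also lower and the same 2 did not pass. In rumen against liver 2 were higher and 1 was lower. The medians were -3.34, 0.14 and -3.37 in rumen against forebrain, rumen against liver and liver against forebrain. PNMA2 stood at 231 ± 0.252 CPM in forebrain, 1.12 ± 0.945 CPM in liver and 7.00 ± 0.479 CPM in rumen (SD, n = 2). PNMA1 stood at 98.3 and 91.7 CPM in forebrain, 4.54 and 2.76 CPM in liver, and 4.29 and 2.89 CPM in rumen. RTL8C was flatter, at 199 ± 35.2, 81.4 ± 34.3 and 99.2 ± 6.87 CPM (SD, n = 2). PEG10 was thus abundant in liver while 6 of these relatives were lower there than in forebrain. RTL1 was the 1 gene lower in rumen than in liver (adjusted p = 0.0108, edgeR), as was PEG10. At low levels, it stood at 0.894 and 2.74 CPM in forebrain, 1.79 and 5.91 CPM in liver, and 0.153 and 0.156 CPM in rumen.

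NDN belongs to the MAGE family, of which 7 others were tested. Lower in rumen than in forebrain were 2 of them, MAGED1 at 2.66-fold (adjusted p = 0.0120, edgeR) and MAGEE2, and 5 did not pass, a share near the 21.5% of all tested genes. In liver against forebrain 5 were lower and 2 did not pass, and in rumen against liver 3 were higher and 1 was lower. The medians were -0.77 in rumen against forebrain, 0.50 in rumen against liver and -1.09 in liver against forebrain. MAGED2 stood at 308 ± 14.3 CPM in forebrain, 182 ± 11.5 CPM in liver and 258 ± 11.6 CPM in rumen (SD, n = 2). Among 6 nucleosome assembly relatives of NAP1L5, 3 were lower in both rumen and liver than in forebrain (TSPYL1, TSPYL4 and TSPYL5), and in rumen against liver 2 were higher. Their medians were -1.72, 0.04 and -1.76 in the same order of comparisons. TSPYL4 stood at 533 ± 36.2 CPM in forebrain, 23.4 ± 1.42 CPM in liver and 50.5 ± 10.1 CPM in rumen (SD, n = 2). NAP1L1, the widely expressed founder of the family, was 1.99-fold higher in rumen than in forebrain (adjusted p = 0.0121, edgeR) and 2.78-fold higher than in liver (adjusted p = 0.00249, edgeR). NAP1L4 lay between 152 and 165 CPM in all 3 tissue means.

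For DIRAS3, 11 related RAS-like GTPases were tested. Against forebrain, 3 were higher in rumen and 1 was lower, against liver 5 were higher and 1 was lower, and in liver against forebrain 1 was higher and 4 were lower. The shares of all tested genes called in either direction were 41.8%, 43.0% and 57.8% in these comparisons. With only 11 genes, no difference from those shares is read from the counts. The medians were -0.40, 0.38 and -0.51. The closest relative in the table, DIRAS2, named after its values were seen, stood at 8.46 and 4.98 CPM in forebrain and had no counts in the other 4 libraries. RAP1A and RAP1B, which are widely expressed, passed in none of the comparisons. RIT1 was 1.96-fold higher in rumen than in forebrain (adjusted p = 0.0101, edgeR), and RASL12 11.8-fold higher (adjusted p = 0.000595, edgeR).

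SLC38A4 was compared with 6 tested transporters of its family. In rumen against forebrain 2 were lower and 4 did not pass, in rumen against liver 3 were lower and 3 did not pass, and in liver against forebrain 4 were higher and 2 did not pass. The medians were -0.20, -0.87 and 1.83. The glutamine transporters SLC38A3 and SLC38A5 stood at 344 ± 308 and 140 ± 0.419 CPM in liver, at 33.8 ± 0.666 and 13.0 ± 1.98 CPM in forebrain, and at 3.37 ± 0.976 and 1.19 ± 1.02 CPM in rumen (SD, n = 2). SLC38A2, the neighbour of SLC38A4 in gene order, lay between 99.6 and 224 CPM in every library. Neuronatin resembles phospholamban, PLN, an inhibitor of the calcium pump. PLN stood at 57.3 and 86.8 CPM in rumen, had no counts in forebrain, and stood at 2.38 and 0.0642 CPM in liver, so it was highest where NNAT was lowest. The pump genes ATP2A1 and ATP2A3 were also higher in rumen than in forebrain (adjusted p = 0.00400 and 0.00646, edgeR), and ATP2A2 passed in none of the comparisons (adjusted p = 0.261, 0.382 and 0.769, edgeR). The list of PLN and the pump genes held 4 tested genes, of which 3 were higher in rumen than in forebrain, 2 higher in rumen than in liver and 1 higher in liver than in forebrain. Their medians were 3.61, 0.63 and 3.56, and the comparisons with forebrain hold PLN at 0 there.

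A list of other genes known to be imprinted in at least 1 mammal held 50 symbols, of which 33 were in the table and 31 were tested. In rumen against forebrain 10 were higher and 5 lower, in rumen against liver 3 were higher and 13 lower, and in liver against forebrain 16 were higher and 7 lower. Of all tested genes, 20.3% were called higher and 21.5% lower in rumen against forebrain, and 21.2% and 21.8% in rumen against liver. In liver against forebrain the shares were 30.5% and 27.3%. In either direction, 41.8%, 43.0% and 57.8% of all tested genes were called in these comparisons. The total shares called in both rumen comparisons were thus near the background. In liver against forebrain, the 16 higher and 7 lower calls among 31 tested genes made a larger share than the 57.8% of all genes. The directions were uneven. Lower calls outnumbered higher ones in rumen against liver, and the reverse held in the comparisons with forebrain. The median log2 fold change of the list was 0.58, -0.94 and 1.83 in these comparisons. Without a Forebrain or a Rumen library, 7 to 9 in place of 15 were called in rumen against forebrain, as the share over all genes fell to between 18.9% and 20.7%. Without either Rumen library, 8 in place of 16 were called in rumen against liver, as the share over all genes fell to 21.0% and 21.2%. Those with the highest mean CPM were H19, IGF2, GNAS and MEG3. H19, a growth-restraining RNA, and IGF2, a fetal growth factor, stood at 37.2 ± 24.6 and 29.3 ± 32.7 CPM (SD, n = 2) in forebrain and at 8987 ± 564 and 9166 ± 1008 CPM in rumen. In liver, where NNAT and PEG10 were high as well, H19 stood at 8121 and 15574 CPM and IGF2 at 6681 and 7845 CPM. GNAS, a G protein subunit, passed in none of the comparisons. MEG3 stood at 381 and 5769 CPM in Liver 1 and 2. PEG3, a zinc finger protein gene, was named after its values were seen. It stood at 737 and 836 CPM in forebrain, 2515 and 5434 CPM in liver, and 161 and 133 CPM in rumen. PEG3 was lower in rumen than in forebrain (5.36-fold; adjusted p = 0.00367, edgeR) and than in liver (27.1-fold; adjusted p = 0.000346, edgeR), as was PEG10. It was also 5.05-fold higher in liver than in forebrain (adjusted p = 0.00263, edgeR), where PEG10 did not pass.

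**Figure D5:**
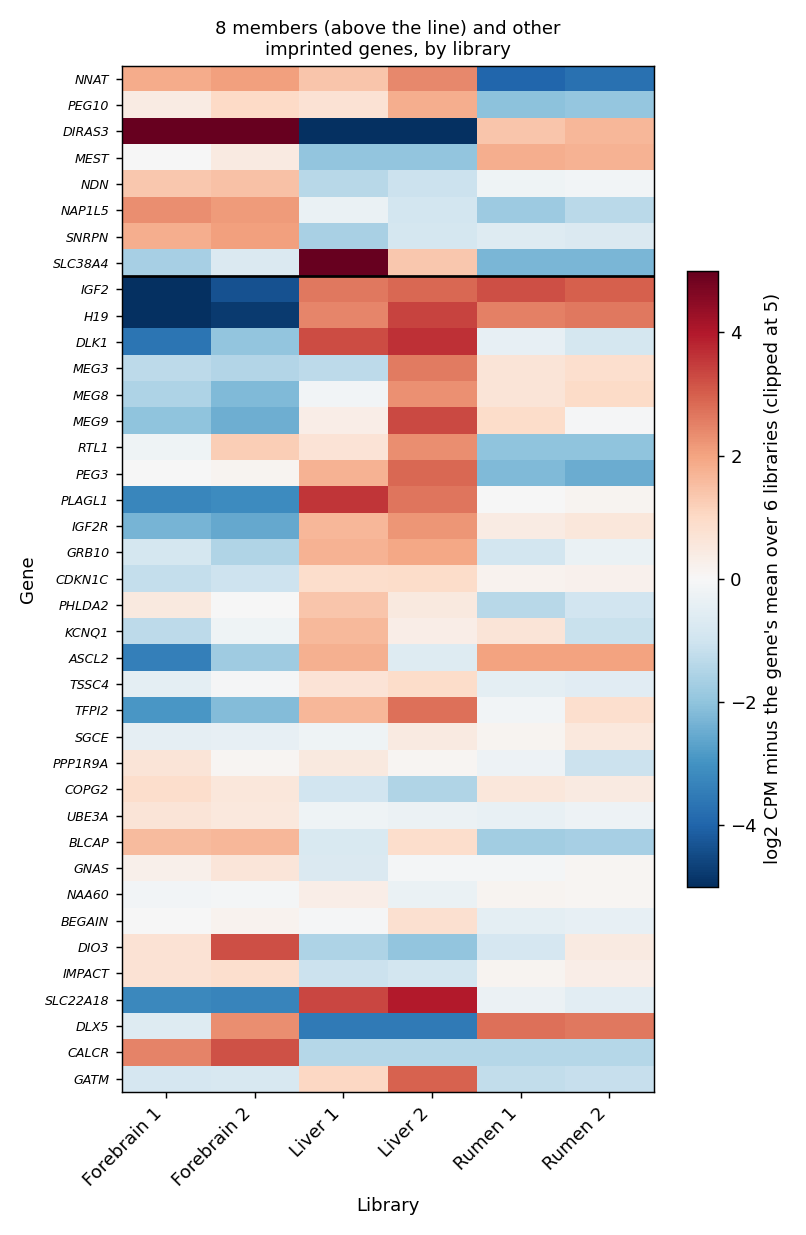
Colour shows log2 CPM minus the gene's own mean over the 6 libraries (columns), clipped at 5, for the 8 genes above the line and 31 other imprinted genes below it. NNAT, PEG10 and PEG3 are blue in rumen, DIRAS3 is red in forebrain and blue in liver, and IGF2 and H19 are blue in forebrain.

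Likeness of pattern was measured as the root mean square difference of centred log2 CPM over the 6 libraries, where 0 means the same shape. Among the 8 genes, NDN and SNRPN were closest at 0.438, followed by NAP1L5 and SNRPN at 0.789, NDN and NAP1L5 at 1.05, and NNAT and PEG10 at 1.36. DIRAS3 and SLC38A4 were farthest apart at 7.59. Over all named genes tested, those nearest to NNAT were UPP1 (0.613), LHX2 (0.666) and RASGRP2 (0.681). LHX2, a homeobox factor of the forebrain, stood at 73.8 and 65.1 CPM in forebrain, 15.0 and 54.0 CPM in liver, and 0.383 and 0.312 CPM in rumen. Nearest to PEG10 were PAG8 (0.324), MAK (0.332) and TM7SF2 (0.334), of which PAG8 and MAK were at or under 1.54 CPM in every library. Nearest to DIRAS3 were the secretory granule gene SCG2 (0.548), STMN4 (0.671) and EEF1A2 (0.685), each under 0.5 CPM in liver. Nearest to MEST were ARHGEF25 (0.166), PLCD3 (0.167) and SLC5A7 (0.200). Nearest to NDN were FUT8 (0.0921), HSF2 (0.114) and HMGB3 (0.124), and to SNRPN EFCAB2 (0.184), PPP2CB (0.192) and SORBS2 (0.195). Nearest to NAP1L5 were NKRF (0.292), NCDN (0.314) and AJAP1 (0.315). Nearest to SLC38A4 were TUBB1 (0.454), a tubulin of platelets, EPB41 (0.503), a protein of the red cell membrane, and CPOX (0.640), an enzyme of haem synthesis. These 3 stood at 213, 403 and 407 CPM in Liver 1 and at 14.6, 43.5 and 42.1 CPM in Liver 2, a gap that their choice by likeness to SLC38A4 fixes. Several of these distances involve values near or at 0 besides those of PAG8 and MAK. UPP1 stood at 0.0765 and 0.0780 CPM in rumen, SLC5A7 had no counts in liver and AJAP1 none in rumen. A prior count of 2 enters these log2 CPM, so such distances depend on it, as does that between DIRAS3 and SLC38A4. With 6 libraries in 3 tissues these distances only describe the libraries.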

How the data were processed

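The authors deposited raw counts, as unscaled whole numbers for each gene symbol and library. Per the submitters' processing notes, HISAT2 2.0.5, featureCounts 1.5.0-p3 and edgeR 3.18.1 were used. Genome build, annotation and strand: not given in the sources used here. Per the labels' protocols, libraries were made with the NEBNext Ultra kit. All 6 columns matched a label by name.

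The test was that of edgeR 4.0.16 under R 4.3.3 (filterByExpr, TMM factors from 0.812 to 1.20, 1 mean per tissue, no block, 3 residual degrees of freedom, the quasi-likelihood method of edgeR 4), with Benjamini-Hochberg adjustment over 11478 genes. A prior count enters edgeR's fold changes. DESeq2 1.42.0 and limma 3.58.1 served as alternatives. The scripts were tested on simulated data. No coordinates are given, since the RefSeq table (ARS-UCD2.0) served only for names and gene order, and it held 13929 of the symbols. No sequences were used here.

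The members and gene lists were chosen with earlier results of these data known. Named genes are the 8 members, their 3 nearest in pattern, their overlapping and neighbouring genes, and the 4 genes of each list with the highest mean CPM. SNRPB, PEG3, DIRAS2, MAGEE2, TSPYL1, TSPYL5, RTL1, ARC and the neuron markers TUBB3, GAD1, SLC17A6, DCX, MAP2 and STMN2 fall outside this rule and were named after their values were seen. The same holds for the markers KLF1, AIF1, TTR, SERPINA1, FGB and HNF4A. It also holds for VIM, TNNT3, MYH3, MYH8, ACTA1, CKM, KRT19, MSLN and UPK3B. Lists of relatives covered phospholamban-like and calcium pump, Gag-derived, RAS-like, MAGE, nucleosome assembly, Sm and SLC38 genes. In this order they held 7, 18, 15, 10, 9, 7 and 10 symbols. Of these, 6, 8, 12, 8, 6, 7 and 7 were in the count table.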

Additional observations from a re-analysis of the deposited data

How the results depend on the processing

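Of the log2 fold changes of the 8 genes recomputed under other settings, 345 kept their direction and their side of the threshold, 22 no longer passed, 3 newly passed and 10 changed sign. Where calls or directions changed below, the cause was not tested. The number of the 8 genes lower in rumen than in liver was 4, but 2 with limma-voom or with only the tissues compared in the fit, and 2 to 4 when 1 library was left out. The number higher in liver than in forebrain was 1, but 0 with the strict filter (50 counts in 2 libraries, which drops SLC38A4) or limma-voom, and 0 to 2 with 1 library left out. Other imprinted genes called numbered 7 to 22 in rumen against forebrain, 8 to 21 in rumen against liver and 14 to 26 in liver against forebrain when 1 library was left out, against 15, 16 and 23. Over all genes the share called in these fits ran from 18.9% to 63.5%, 21.0% to 61.8% and 33.8% to 70.1%. Ratios of DIRAS3 and SLC38A4 with 1 liver library were added after seeing the data. A lone library left in a tissue was assumed to vary like the others. In liver against forebrain the log2 fold change of NNAT turned to -0.0535 with RLE size factors, -0.0888 with upper quartile factors, -0.46 with no scaling factors, -0.0558 with DESeq2, -0.0577 with limma-voom and -0.0429 with only those tissues. It was -0.56 to 0.43 with 1 library left out, including -0.08 without Forebrain 1. PEG10 ranged from -0.0037 without Liver 2 to 1.0841 without Liver 1. With no scaling factors the median of all genes moved by -0.155, 0.334 and -0.489 in rumen against forebrain, rumen against liver and liver against forebrain. Calls were then 62.2% higher in rumen against liver (49.3% in the main scaling) and 39.2% higher in liver against forebrain (52.8%).

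Libraries share replicate numbers across tissues, but the differences between library 2 and library 1 correlated at 0.0542, -0.102 and 0.0360 between tissues, so the numbers were not taken as pairs. With the replicate number as a block, NAP1L5 in rumen against liver no longer passed (log2 fold change -0.96; adjusted p = 0.0613, edgeR) and NNAT in liver against forebrain turned to -0.0418. The block changed no other call of the 8 genes. With it, 16, 15 and 22 other imprinted genes were called. The older quasi-likelihood method of edgeR, chosen after seeing the data, changed no call of the 8 genes. Depth limits DIRAS3 in liver and SLC38A4 in rumen and forebrain, all at 5 counts or fewer per library.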
